A study of Mus musculus with 12 samples.

Results

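Cytosolic ribosomal protein genes were chosen by symbol, as all genes whose name starts with Rps or Rpl followed by a digit, together with Rpsa, Rplp0, Rplp1 and Rplp2, leaving out symbols marked as pseudogenes and the Rps6 kinases. The rule took 86 of the 27457 genes in the table, 34 of the small subunit series and 52 of the large, and all 86 had a count. Judged by symbol, 9 of them are paralogs of another member or, for Rps19bp1, a protein that binds Rps19 (Rps27l, Rps27rt, Rpl3l, Rpl10l, Rpl22l1, Rpl36al, Rpl39l, Rpl7l1 and Rps19bp1), which leaves 77 others. Together the members held 81507666 of the 414182018 unique molecular identifiers (UMIs, each marking 1 captured transcript), or 19.7%.

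Single-cell libraries (10x Genomics, 5′ end) gave counts for 93126 cells of 48 tumors of MC38, a colon carcinoma line of C57BL/6 origin, grown under the skin of female mice aged 8 to 12 weeks. Hosts were C57BL/6J (B6) mice or F1 mice of B6 and a Collaborative Cross (CC) strain, a recombinant inbred line bred from several founder strains: CC001/UncJ, CC002/UncJ, CC007/UncJ, CC036/UncJ, CC075/UncJ, CC079/TauUncJ or CC080/TauUncJ. Each F1 animal thus carried a B6 copy of its autosomes beside the CC copy, and every tumor was the same line. Each animal was given 200 µg of an anti-PD-1 antibody (aPD1) or of its isotype control once, tumors were taken 48 hours later, and cells were sorted to 90% CD45-positive and 10% CD45-negative. Sets of 4 hashtagged tumors, an isotype and an aPD1 tumor of each of 2 strains, were run together in each of 12 pools, and the tumor was the replicate, although 2 CC080 tumors carry the same animal identifier. The study classed CC001, CC002 and CC075 as responders and CC036, CC079 and CC080 as non-responders from tumor growth in other animals, which gave 10 responder isotype, 10 responder aPD1, 9 non-responder isotype and 9 non-responder aPD1 tumors. B6 and CC007 had no class. Strain and pool were partly tied, since CC075 and CC036 were only in pools 8 to 12 and CC079 only in pools 1 to 5.

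Cells per tumor ranged from 53 to 3082, UMIs per tumor from 88816 to 17713491, and the median cell had 3333.5 UMIs. The macrophage clusters held 68059 cells and the T/NK clusters 11396, and 4990 cell barcodes occurred in more than 1 pool. Cells with a ribosomal share above a threshold had been removed before deposit, and the highest share left was 44.98%, so the upper end of every distribution below is truncated.

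Ribosomal proteins assemble with ribosomal RNA into the small (Rps) and large (Rpl) subunits, which decode mRNA and form peptide bonds. Their mRNAs carry a tract of pyrimidines at the 5′ end, the TOP motif, through which mTOR signaling sets their translation as a group. Processed copies of these mRNAs are scattered through mammalian genomes, and some of the copies are expressed. T cells that are activated or dividing raise ribosome production.

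Windows around annotated transcription starts are shown for members that hold a short pyrimidine run near the start, from RefSeq (GRCm38.p6), in which 66 of the 86 members had an entry. The letters CTTTCC, searched on the given strand within 30 bases of a start, occurred in 17.9% of 78 member windows and in 2.89% of 32851 windows of all genes of the same length. With both strands the shares were 20.5% and 5.54%. The letters CCGGAA, the core of ETS factor motifs, occurred in 16.7% and 2.95% of windows on the given strand and in 26.9% and 5.88% on both. Most member windows thus lacked these letters, and a match is a description of the letters only. The windows of 4 members that recur below are given 5′ to 3′ on the strand of the gene with CTTTCC in capitals, each with the 10 bases before the annotated start and 15 bases from it on, Rpl13a (chr7:45128731-45128755, minus strand), Rpl28 (chr7:4792955-4792979, plus strand), Rpl18 (chr7:45718061-45718085, plus strand) and Rpl39l (chr16:10170218-10170242, plus strand). In Rpl39l the letters lie before the annotated start, and in the other 3 after it.
Rpl13a: cctgcgacaagacctcctcCTTTCC
Rpl28: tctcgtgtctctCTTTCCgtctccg
Rpl18: ctcgcaggccgctCTTTCCccgccc
Rpl39l: aggcCTTTCCggatttccggtggtc

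The clusters given by the authors differed widely in the share of their UMIs that came from the 86 genes. Macrophage cluster 19 had the lowest median over cells, 2.93%, with 1225 UMIs per cell and a mitochondrial share of 4.84%, the highest of all clusters. Granulocytic cluster 16 followed with 3.57% and 815 UMIs per cell. The other macrophage clusters lay between 12.8% (cluster 9) and 25.5% (cluster 15, 293 cells). The T/NK clusters lay between 19.8% (cluster 8) and 27.5% (cluster 3), and the dendritic cell clusters between 17.1% (migratory, cluster 11) and 21.1% (cDC2, cluster 14). The cells behind these clusters had been clustered on the same genes, with the ribosomal share regressed out, so these levels are a description and carry no test.

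**Figure D1:**
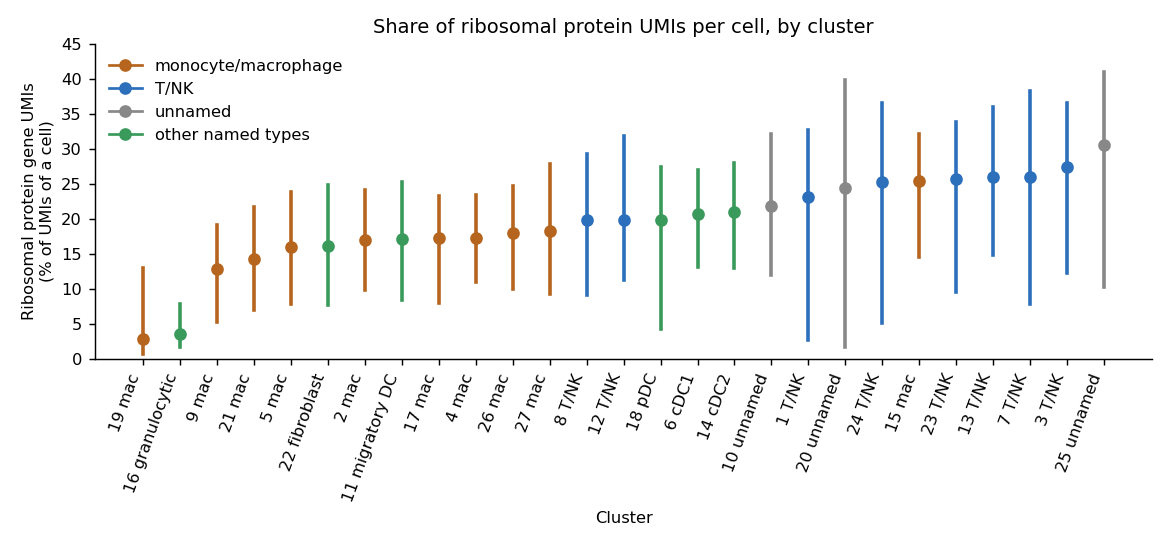
Ribosomal protein UMIs as a percent of all UMIs of a cell (y axis) in each of the 27 clusters, ordered by median (x axis); points are medians over cells and bars run from the 10th to the 90th percentile. Macrophage cluster 19 and granulocytic cluster 16 sit under 4% and every T/NK cluster sits above 19%.

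Most members had their lowest level in the same cluster. Of the 86, 71 were at their lowest in granulocytic cluster 16, and 32 were at their highest in cluster 20, 11 in T/NK cluster 3 and 10 each in T/NK cluster 13 and macrophage cluster 15. The shares of all genes lowest or highest there were not taken. Clusters 16 and 20 also had the lowest and the highest ribosomal share of summed counts (6.21% and 29.7%), so these counts in part restate that share. Levels are given per 1000000 UMIs of a cluster (CPM) and are compared only within a gene. Among the 83 members that reached 50 CPM in some cluster, the ratio of the highest to the median cluster had a median of 1.60, and among all 7375 genes that reached it the median was 3.36.

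The member with the largest such ratio was Rps27l, a paralog of Rps27 and a known target of p53. It stood at 1864 CPM in migratory dendritic cells (cluster 11), against a median cluster of 397.4 CPM. Over the 39 tumors with at least 20 such cells its level ran from 1051 to 2797 CPM with a median of 1864. No other cluster passed 742.5 CPM (macrophage cluster 15), where the 5 tumors had a median of 800.1 CPM. Rps12, of the small subunit, stood at 8153 CPM in cluster 20 against a median of 2614, and ran from 857.4 to 13264 CPM over 41 tumors there. Rps18, which lies in the head of the small subunit, was also highest there, at 4566 CPM against 1744, and in 4 strains the level outside cluster 20 lacks the reads that were counted to its copy Gm10260. Rps15a peaked in T/NK cluster 3 at 7831 CPM against a median of 3311, and Rpl31 in plasmacytoid dendritic cells (cluster 18) at 1971 CPM against 820.5. Rps2, Rplp0 and Rps15 had their peak in cluster 20, at 5572, 4275 and 1568 CPM.

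Of the paralogs and the binding protein, Rpl39l, Rpl3l and Rpl10l were thin in counts. Rpl39l, whose parent Rpl39 lines the peptide exit tunnel, had 541 UMIs in all, and stood at 32.0 CPM in fibroblasts (cluster 22) against 0.83 in the median cluster. In the 9 tumors with at least 20 fibroblasts it ran from 9.69 to 86.2 CPM with a median of 24.7. Rpl3l, the heart and muscle paralog of Rpl3, had 1856 UMIs and its highest level, 40.9 CPM in granulocytic cells, rested on 23 of them, with 0 to 88.1 CPM over 7 tumors. Migratory dendritic cells had 27.9 CPM of Rpl3l from 185 UMIs. Rpl22l1, the paralog of Rpl22, peaked in T/NK cluster 13 at 1114 CPM against a median of 612.9. Rpl36al was highest in plasmacytoid dendritic cells, at 1427 CPM against 979.5. Rps27rt (90.0 CPM in T/NK cluster 23), Rps19bp1 (97.3 CPM in cluster 20) and Rpl7l1 (70.7 CPM in macrophage cluster 15) stayed under 100 CPM in every cluster.

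Cluster 20 was left without a name. Its 10 leading genes included Kirrel3, Tenm3, Rhox5 and Htra1. At least 10 CPM was reached by 1 of 8 MC38 markers (97.8 CPM), no T/NK marker, 3 of 7 fibroblast markers and all 9 macrophage markers. At least 100 CPM was reached by 3 fibroblast and 2 macrophage markers and by no MC38 or T/NK marker. Its cells had a median share of 24.4%, but the 10th and 90th percentiles were 1.73% and 39.9%, and 9.67% of its 3411 cells lay above 40%, near the limit of the filter. By tumor its share had a median of 12.3% in CC075 and 17.4% in CC036 hosts and of 27.3% to 34.8% in the other strains. The 34.8% is 1 CC007 tumor. Tumors ran from 5.34% to 23.9% in CC075, from 10.2% to 29.4% in CC036 and from 11.1% to 33.7% in B6 hosts, and these ranges overlapped. All CC075 and CC036 tumors were in pools 8 to 12. Cluster 25 had the highest median, 30.6%, in 249 cells that carried all 6 B cell markers beside 6 of 8 MC38 markers at 100 CPM, and was not named either. Of the MC38 list the paper gives Shisal2b alone, and the other genes are Epcam, Krt8, Krt18, Krt19, Cldn4, Cldn7 and Lgals7. The list thus does not show that cells carrying it are tumor cells, or that cells lacking it are not.

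Rps18 was the member with the clearest difference between hosts, and it shares nearly all of its sequence with other genes. Rps18 (chr17:33951999-33956001, minus strand, GRCm38, 5 exons) is annotated beside Tapbp, Rgl2, Pfdn6, Wdr46, B3galt4 and Vps52. Gm10260 (chr13:97760072-97760632, minus strand), annotated as a protein-coding gene and without introns in its match, aligned to the 560-base Rps18 transcript with 540 of 545 bases identical. Gm11361 (chr13:28257528-28258134, plus strand) aligned with 536 of 540. Counting from 1 at the 5′ end of the Rps18 transcript and giving the Rps18 base first, Gm10260 differed by T243C, A394C, G428A and G488A in the coding sequence and by G534C in the 3′ UTR. Gm11361 differed by C54T in the 5′ UTR and by T68A, A228C and A394C in the coding sequence. The windows around positions 243, 394 and 428 are shown because a read that covers none of the differing bases (capitals) cannot be assigned to 1 of the genes.
Rps18, bases 231 to 255: actcacggaggaTgaggtggagcga
Gm10260, bases 231 to 255: actcacggaggaCgaggtggagcga
Rps18, bases 382 to 406: gaggacctggagAggctgaagaaaa
Gm10260, bases 382 to 406: gaggacctggagCggctgaagaaaa
Gm11361, bases 382 to 406: gaggacctggagCggctgaagaaaa
Rps18, bases 416 to 440: atagagggctgcGccacttttgggg
Gm10260, bases 416 to 440: atagagggctgcAccacttttgggg

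Hosts fell into 2 sets by the share of Rps18 and Gm10260 UMIs that was counted to Gm10260. Over all cells, the share was 0.18% in B6, 0.38% in CC001, 0.24% in CC002 and 0.33% in CC075 hosts. It was 36.6% in CC007, 36.8% in CC036, 32.2% in CC079 and 34.6% in CC080 hosts. In macrophages, Gm10260 lay between 0.25 and 16.8 CPM in every responder tumor and between 417.3 and 985.3 CPM in every non-responder tumor. B6 tumors lay between 1.54 and 3.68 CPM and CC007 tumors between 408.1 and 847.9 CPM. The sets did not overlap, and B6, which has no class, lay with the responder strains and CC007 with the non-responders. Gm11361 followed the same split at a lower level, with 1.14 to 3.49 CPM in responder and 9.60 to 24.5 CPM in non-responder macrophages.

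The split held in nearly every cluster that could be read. Among clusters with at least 200 UMIs of the pair, the share in CC036 hosts had a median of 39.5% over 24 clusters and ran from 29.6% to 44.1%, leaving out cluster 20. The corresponding ranges were 30.04% to 45.8% in CC007, 25.4% to 43.3% in CC079 and 30.9% to 42.6% in CC080 hosts. Cluster 20 was the exception, with 0.57% in CC007, 1.32% in CC036, 0.46% in CC079 and 0.58% in CC080 hosts. The counts there were not small, since the CC079 value rests on 32839 UMIs of Rps18 and 152 of Gm10260 in 595 cells. Tumor by tumor, cluster 20 had a median of 0.67% in the 6 CC079 tumors with at least 20 such cells, 0.63% in 5 of CC080, and 5.54% with a highest value of 14.3% in 6 of CC036. In B6, CC001, CC002 and CC075 hosts cluster 20 had 0.066% to 0.28%. MC38 is of C57BL/6 origin, and whether the cells of cluster 20 were tumor cells was not tested. Cluster 25 had 44.1% in CC036 and 40.4% in CC080 hosts, against 0.58% in CC001 and 0% in CC075 hosts. B6 hosts had 9.88% there, above their share over all cells. That value rests on 146 UMIs of Rps18 and 16 of Gm10260, under the limit of 200 UMIs.

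**Figure D2:**
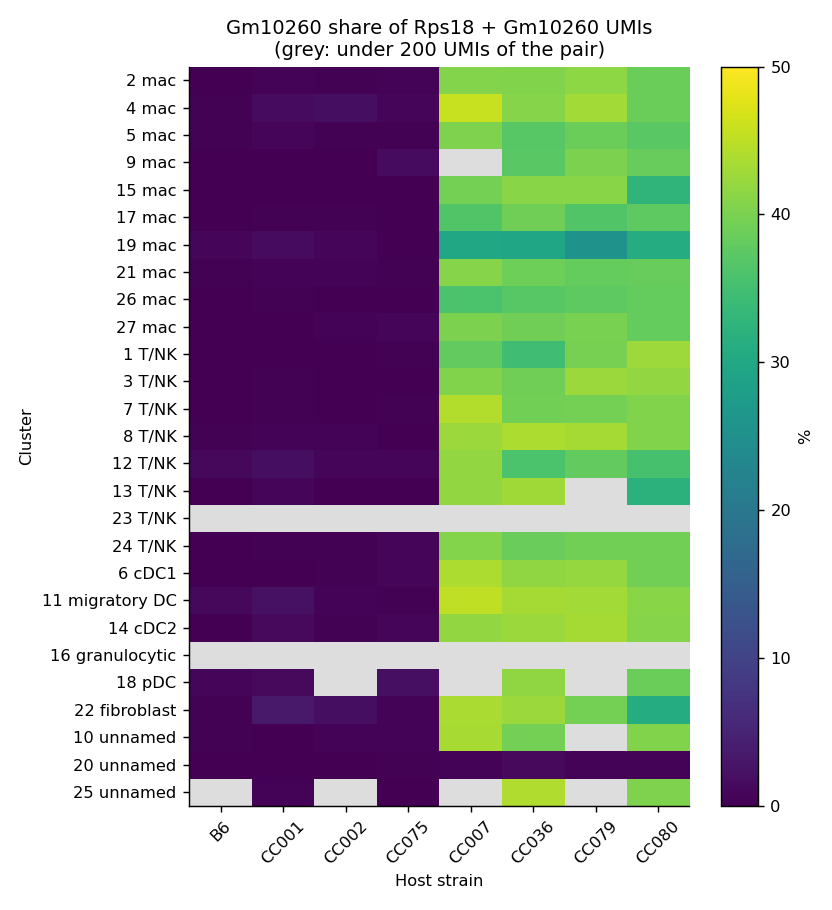
Gm10260 UMIs as a percent of Rps18 and Gm10260 UMIs together (color, 0 to 50%) in each cluster (rows) and host strain (columns); grey marks pairs with under 200 UMIs. CC007, CC036, CC079 and CC080 hosts show 25.4% to 45.8% in every other readable cluster and under 1.4% in cluster 20.

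Other copies took small shares of their pairs where they were counted, and copies outside the table could not be read. Of the 86, 78 had a copy of at least 95% identity in the annotation, with a median of 4 copies per member, and 12 gene pairs had both genes in the table. Beside the 2 pairs of Rps18, the other 10 had a copy share of at most 3.44% in every strain. The highest was that of Rpl21 with BC004004, at 1.91% to 3.44%. Whether these shares differed between strains was not tested, and that of Rpl10 with Rpl10-ps3 ran from 0.79% to 1.66%. Rps27 and Rps27rt, which are identical over 341 aligned bases, ran from 1.06% to 1.47%, so the split of reads between these 2 members is uncertain.

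The response classes were compared on counts summed per tumor, with edgeR's quasi-likelihood test and Benjamini-Hochberg adjustment over all genes. In macrophages, 85 members were tested and 2 passed an adjusted p of 0.05, both higher in responder strains, where 6.52% of 11873 genes passed and 4.1% passed as higher. Over the 85 members the log2 fold change had a median of 0.016 (55 higher and 30 lower), against a median of -0.0045 over all genes. Scaling by library size alone moved the median of all genes to -0.053 and that of the members to -0.032. Of all genes, 338 then passed as higher and 524 as lower, against 487 and 287 in the main fit. Of the members, 3 passed under that scaling, 2 higher and 1 lower. The sign of the members' median also turned with pools as blocks (-0.031) and without CC001 (-0.028), CC002 (-0.048) or CC036 (-0.052) tumors or pool 8 (-0.031), and in macrophage cluster 2 alone (-0.041, 25 higher and 59 lower). It was -0.0011 without pool 5 and -3.6e-05 in pools 8 to 12. Without CC001 tumors 1 of 84 members passed (7.81% of genes), with Rpl39l, 1 of the 2 above, no longer tested. Without CC075 6 of 85 passed (6.65% of genes). At an unadjusted p under 0.05 stood 9 members, beside 19.9% of all genes. With pools as blocks 2 members passed (8.74% of genes), and in macrophage cluster 2 alone 1 of 84 did (3.75% of genes).

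Rps18 was the first of the 2. Its level in macrophages ran from 1190 to 2535 CPM with a median of 1860 in the 20 responder tumors and from 760.6 to 1453 CPM with a median of 1196 in the 18 non-responder tumors. The classes overlapped, with the lowest responder values in CC075 hosts (1190 to 1785 CPM). The fitted log2 fold change was 0.66 ± 0.089 (SE, edgeR adjusted p = 3.33e-06), and the fit with pool blocks gave 0.59 ± 0.064 (adjusted p = 3.23e-07).

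For Rps18 in T/NK cells the classes did not overlap. Responder tumors ran from 2439 to 3570 CPM with a median of 2954, and non-responder tumors from 940.8 to 2198 CPM with a median of 1561. The log2 fold change was 0.94 ± 0.092 (edgeR adjusted p = 1.19e-09). B6 tumors, of no class, ran from 2077 to 3712 CPM, and the 3 CC007 tumors with enough cells stood at 1624, 1909 and 1936 CPM.

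With Rps18, Gm10260 and Gm11361 summed into 1 feature, neither class difference passed. The summed log2 fold change was -0.044 ± 0.091 in macrophages (edgeR adjusted p = 0.858) and 0.20 ± 0.097 in T/NK cells (adjusted p = 0.331). The difference between strains in the sum did pass, with an adjusted p of 0.00581 in macrophages and 0.00344 in T/NK cells. The sum was not tested with pools as blocks, so this difference is not separated from that between pools. In macrophages the strain mean of the sum was lowest in CC075 (1441 CPM) and highest in CC079 hosts (2223 CPM), which shared no pool. Summed levels in macrophages ran from 1199 to 2542 CPM with a median of 1871 in responder tumors and from 1189 to 2403 CPM with a median of 1939 in non-responder tumors. In T/NK cells they ran from 2445 to 3574 CPM with a median of 2969 and from 1399 to 3774 CPM with a median of 2726, and the classes overlapped in both cell types.

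**Figure D3:**
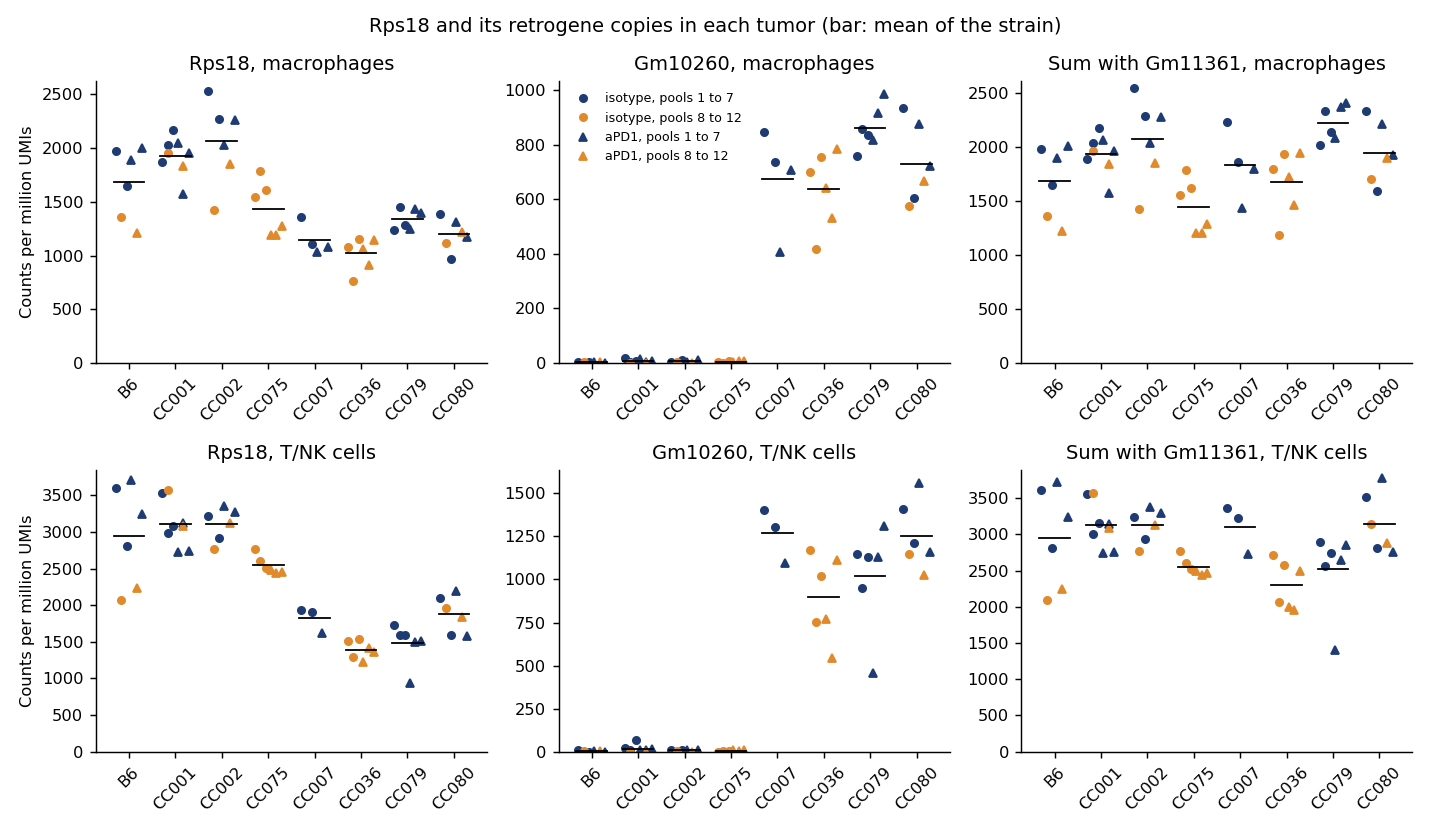
Rps18, Gm10260 and the sum of both with Gm11361 (CPM, y axis) in macrophages (top) and T/NK cells (bottom) of each tumor by host strain (x axis); circles are isotype and triangles aPD1 tumors, blue marks pools 1 to 7 and orange pools 8 to 12, and bars are strain means. Gm10260 is at most 67.8 in B6, CC001, CC002 and CC075 tumors and at least 408.1 in the others, and the sums of the 2 sets of strains overlap.

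Rpl39l was the other member that passed in macrophages, at very low counts, with 229 UMIs in all responder and 60 in all non-responder tumors. Its level ran from 0.21 to 4.44 CPM with a median of 1.48 in responder tumors and from 0 to 2.64 CPM with a median of 0.13 in non-responder tumors, 7 of which had none. The ranges overlapped. The log2 fold change was 2.11 ± 0.42 (edgeR adjusted p = 0.00109), it was 2.38 ± 0.44 with pools as blocks (adjusted p = 0.000801), and it did not pass within pools 8 to 12 alone (1.80). With most of its UMIs in responder tumors, the gene may have passed the filter on low counts through that group alone, so these p-values are weak support. Without CC001 tumors, and in macrophage cluster 2 alone, 84 members were tested and Rpl39l was not among them. The gene had 36 UMIs in responder and 18 in non-responder tumors in T/NK cells, where it did not pass the filter on low counts, and without that filter the log2 fold change was 0.46 ± 0.51 (edgeR adjusted p = 0.788).

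Of the members, 83 were tested in T/NK cells and 3 passed, all higher in responder strains, where 2.69% of 6976 genes passed and 1.09% passed as higher. The count was 7 by DESeq2 (3.58% of genes), 6 without the 2 tumors that share an animal identifier (2.82% of genes) and 1 with tumors of at least 100 cells (1.94% of genes). Beside Rps18 these were Rpl13a, which in mammals also acts outside the ribosome in the interferon gamma response, and Rpl34 of the large subunit. Rpl13a ran from 1767 to 2477 CPM with a median of 1959 in responder and from 1176 to 2111 CPM with a median of 1747 in non-responder tumors. The ranges overlapped, and the log2 fold change was 0.27 ± 0.064 (edgeR adjusted p = 0.00939). Rpl34 ran from 3320 to 4717.5 CPM with a median of 4068 and from 2562 to 4297 CPM with a median of 3386. These overlapped as well, with a log2 fold change of 0.27 ± 0.076 (adjusted p = 0.0429). The call for Rpl34 held in 13 of 29 alternatives, was lost in 15 and changed sign in 1, and leaving out CC001, CC002, CC036 or CC079, or pool 1, 2, 5, 8, 10, 11 or 12, was enough to lose it (adjusted p of 0.056 to 0.299). That for Rpl13a held in 22 of 29 and was lost without CC001 (adjusted p = 0.129), CC002 (0.0509) or CC079 (0.125), with tumors of at least 100 cells (0.0668), in pools 1 to 5 (0.101) or 8 to 12 (0.194) alone, and in cluster 7 alone, where the fold change was 0.060 (adjusted p = 0.914). Where leaving out a strain or pool lost the Rpl34 call, its fold change was 0.18 to 0.29. The lost Rpl13a calls outside cluster 7 had 0.18 to 0.32. With pools as blocks, 5 members passed (4.52% of genes), with Rps14 (0.19 ± 0.054, adjusted p = 0.0327) and Rpl28 (0.22 ± 0.065, adjusted p = 0.045) added.

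Most fold changes of members in T/NK cells were positive without passing. Of the 83, 81 had a positive and 2 a negative fold change, with a median of 0.16 against -0.0059 over all genes, and 41 had an unadjusted p under 0.05, as did 14.9% of all genes. The median stayed positive under library size scaling (0.11, all genes -0.058) and under scaling by the other genes (0.17). Among them, Rpsa, which is also the laminin receptor, had 0.34 ± 0.11 (edgeR adjusted p = 0.107) and Rplp0, the base of the ribosomal stalk, 0.28 ± 0.11 (adjusted p = 0.176). Its partners Rplp1 and Rplp2 had 0.12 ± 0.073 (adjusted p = 0.457) and -0.037 ± 0.090 (adjusted p = 0.924).

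The clusters that made up the T/NK sums had different shares in each class, and their part in these fold changes was not tested. Cluster 3, the T/NK cluster with the highest median ribosomal share over cells, made up a median of 33.5% of T/NK cells in responder and 10.1% in non-responder tumors. Cluster 8, which had the lowest median over cells but not the lowest share of summed counts (24.5%, against 21.1% in cluster 12), made up 18.4% and 29.8%. Within cluster 3 the ribosomal share was 28.8% ± 3.08 (SD) over 19 responder tumors and 28.0% ± 3.89 over 6 non-responder tumors, and within cluster 7 it was 25.7% ± 3.53 (n = 17) and 26.9% ± 3.56 (n = 15). Within cluster 8 it was 24.8% ± 2.09 (n = 15) and 22.7% ± 3.20 (n = 15), and within cluster 24, which made up 7.93% and 16.1% of T/NK cells, 26.3% ± 2.38 (n = 10) and 28.0% ± 3.15 (n = 11). In cluster 7 alone, 1 of 81 members passed (Rps18), where 0.0996% of 2009 genes did. There the median log2 fold change was -0.051, with 19 members higher and 62 lower. Without CC080 tumors 49 of 83 members passed with a median of 0.29 (beside 4.57% of all genes), without CC075 18 passed (4.18%), and without pool 3 15 passed (3.18%). Without CC001, CC002 or CC079, 1 passed (beside 2.53%, 1.21% and 1.95% of all genes).

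Markers of other cells were also counted in the summed T/NK cells. The 9 macrophage markers, all of them detected, summed to between 140.7 and 1731 CPM (median 653.7) in responder and between 175.8 and 4134 CPM (median 862.7) in non-responder tumors. The 9 T/NK markers summed to between 4814 and 7573 CPM and between 3357 and 5935 CPM. MC38 markers summed to at most 22.5 CPM in responder and 61.9 CPM in non-responder tumors, with Krt8, Krt19 and Cldn4 at 0 in both. No cluster was named from this list, and 1 of its 8 markers reached 10 CPM in cluster 20. A low sum therefore does not show that tumor RNA was absent. The part of these differences in the fold changes was not tested.

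**Figure D4:**
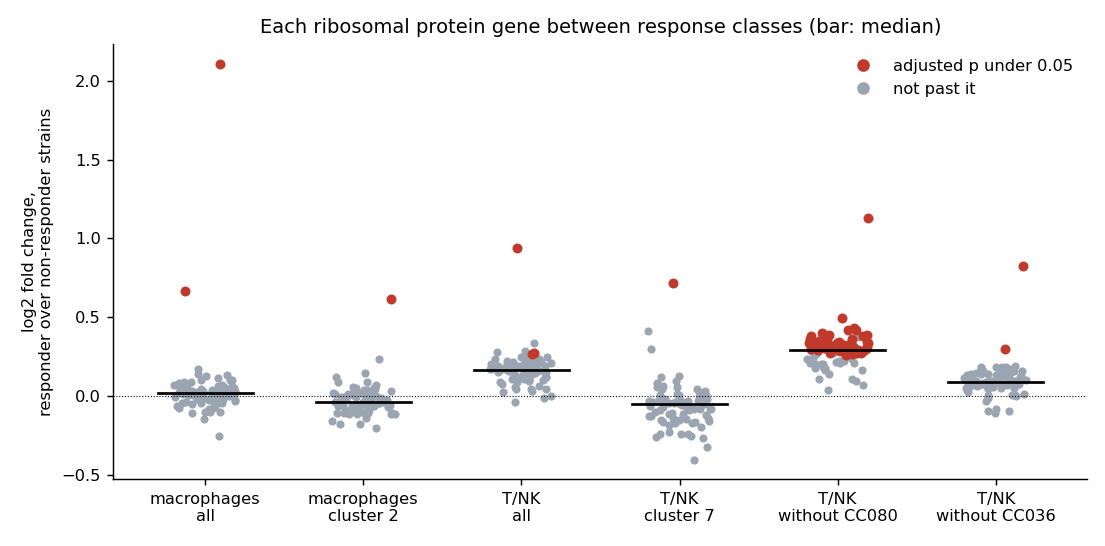
Log2 fold change of each ribosomal protein gene between responder and non-responder strains (y axis) in macrophages and T/NK cells, for all cells, for the largest cluster alone and for T/NK cells without CC080 or CC036 tumors (x axis); red points pass an adjusted p of 0.05 and bars are medians. In T/NK cells the median is 0.16 with all cells, -0.051 in cluster 7, 0.29 without CC080 and 0.085 without CC036.

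No member passed the test for a change 48 hours after aPD1. The fits held no term for strain, and the pairs of isotype and aPD1 tumors of a strain within a pool were not fitted. A change smaller than the spread between strains could therefore be missed. In macrophages, no member and no gene passed in responder strains (0.0% of 11873 genes), in non-responder strains (0.0%) or in the difference between them (0.0%) when tested with edgeR. The genes with an unadjusted p under 0.05 numbered 817 (6.88%), 93 (0.783%) and 677 (5.7%), with no member among them, and DESeq2 called 2, 0 and 1 genes, again with no member. The 3 comparisons in T/NK cells likewise called no gene by edgeR (0.0% of 6976 genes each). Their genes with an unadjusted p under 0.05 numbered 205 (2.94%), 275 (3.94%) and 246 (3.53%), of which 0, 2 and 0 were members, namely Rps27 (-0.24 ± 0.10) and Rps6 (-0.22 ± 0.11) in non-responder strains. DESeq2 called 0, 1 and 0 genes there, with no member. With pools as blocks edgeR called 2 (0.0168%), 0 and 1 (0.00842%) genes in macrophages and 0, 3 (0.043%) and 0 in T/NK cells, again with no member. The members at an unadjusted p under 0.05 then numbered 2 (beside 11.8% of genes), 0 and 1 (beside 11.3%) in macrophages. In T/NK cells they numbered 2 (beside 5.12%) in responder strains, 15 of 83 (beside 6.28%) in non-responder strains, where the members' median was -0.14, and 0 in the difference. The median log2 fold change of the members after aPD1 was -0.023 in responder and 0.037 in non-responder macrophages, and -0.057 and -0.14 in T/NK cells. With tumors of at least 100 cells alone, the T/NK medians were -0.083 and -0.045, so the order of the classes turned, and that of the difference went from 0.074 to -0.042.

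The ribosomal share per tumor in macrophages was 18.1% ± 1.99 (SD, n = 10) in responder isotype, 17.3% ± 2.15 (n = 10) in responder aPD1, 17.8% ± 1.70 (n = 9) in non-responder isotype and 18.2% ± 1.52 (n = 9) in non-responder aPD1 tumors. In T/NK cells it was 26.9% ± 2.44, 26.1% ± 1.77, 25.5% ± 2.09 and 23.5% ± 3.71 in the same order. All 4 groups overlapped in both cell types, and the T/NK cells of every group lay above the macrophages in their mean.

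More members passed between host strains than between response classes, and the same held for all genes. Between classes, 6.52% of all genes had passed in macrophages and 2.69% in T/NK cells. The strain test also took in the strains without a class, so the counts of the strain and class tests are not directly comparable. Tested over all 8 strains with edgeR, 54 of 85 members differed in macrophages, where 51.3% of 12510 genes did, and 69 of 83 in T/NK cells, where 24.8% of 8233 genes did. Among the 83 members tested in both, 50 passed in both, as did 17.5% of the 7958 genes tested in both. With pools as blocks, which compares strains only within a pool, 2 of 85 members passed in macrophages (Rps18 and Rpl39l, against 12.6% of genes) and 27 of 83 in T/NK cells (against 6.74% of genes), and all of these had passed without the block. Of the 2, Rpl39l rests on very low counts and is subject to the limit on its p-values given above. Within T/NK cluster 7 alone 14 members passed, where 3.21% of genes did.

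Most members were also lower in later than in earlier pools within a strain, except in CC001 T/NK cells, and this was not tested. B6, CC001, CC002 and CC080 tumors were in both earlier pools (1 to 7) and later ones (8 to 12). The later set of each strain was 2 tumors of a single pool, pool 8 for B6, pool 12 for CC001 and CC002, and pool 11 for CC080. In macrophages 66, 52, 81 and 71 of 85 members were lower in the later pools, in the order of these strains, with a median log2 difference of -0.21, -0.025, -0.27 and -0.091. The share of all genes that were lower was not taken, so these counts have no background. The counts in T/NK cells were 62, 29, 59 and 55 of 83, with a median of -0.23, 0.061, -0.079 and -0.055. In CC001 hosts 54 of the 83 were thus higher in the later pool. Rpl21, which had the smallest p between strains in macrophages after Rps18 (edgeR adjusted p = 0.000116, and 0.258 with pools as blocks), was among the members lower in later pools. In macrophages of B6 hosts it ran from 1659 to 1919 CPM in 4 earlier tumors and stood at 965.8 and 1107 CPM in the later ones. In CC002 hosts it ran from 1934 to 2089 CPM and stood at 1223 and 1529 CPM. Rpl29, of the large subunit, ran from 1223 to 1515 CPM and then stood at 581.2 and 687.1 CPM in B6 macrophages. The median macrophage share of a pool was 17.05% to 20.6% in pools 1 to 7 and 15.5% to 17.4% in pools 8 to 12, and these ranges overlapped.

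Rplp2 had its highest median in CC080 hosts in both sets of pools, although single tumors of other strains reached the CC080 range. It encodes an acidic protein of the stalk that recruits elongation factors. In macrophages it ran from 2744 to 3105 CPM with a median of 3003 in the 6 CC080 tumors, and no tumor of another strain passed 2790.5 CPM. Only the top of CC036 (2018 to 2790.5 CPM) reached the CC080 range. The strain test gave an edgeR adjusted p of 0.000376 and, with pools as blocks, 0.0705. CC080 tumors in T/NK cells ran from 3874 to 4728 CPM with a median of 4562, and the next strain by median, B6, from 2626 to 4048 CPM, with a highest value elsewhere of 4117 CPM in CC036 (adjusted p = 0.000311, and 0.00899 with pools as blocks). Both sets of pools showed it in CC080 macrophages, with 2788 to 3105 CPM in earlier and 2744 and 2991 CPM in later tumors. By cluster, CC080 hosts had 3048 CPM in macrophage cluster 2 against 2168 to 2617 in the other strains, and 5274 CPM in T/NK cluster 7 against 3010 to 3959.5. In cluster 20 they had 3716 CPM, inside the range of the other strains (2441 to 4048). The copy of Rplp2 inside Wdr89 took at most 0.39% of the pair in any strain.

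Rpsa and Rpl13a differed by strain in T/NK cells. Rpsa ran from 4133 to 5771 CPM with a median of 4740 in the 8 CC001 tumors and from 2124 to 3359 CPM with a median of 2539 in the 6 CC036 tumors, and these strains did not overlap (edgeR adjusted p over strains = 6.84e-07, and 0.000182 with pools as blocks). All CC036 tumors were in pools 8 to 12. In each strain with both sets of pools, the Rpsa median was lower in the later pools. It was 2738 against 3888 CPM in B6, 4299 against 4852 in CC001, 3365 against 3856 in CC002 and 3259 against 3961 in CC080. The later B6 tumors, at 2702 and 2773 CPM, lay inside the CC036 range. The later CC001 tumors, at 4133 and 4464 CPM, lay above it. CC001 was also the highest strain within T/NK cluster 3 (5444 CPM) and cluster 7 (4317 CPM), but in cluster 7 alone the strain test did not pass (adjusted p = 0.0636). Rpl13a was lowest in CC079 hosts, at 1176 to 1670 CPM with a median of 1517, and CC007 came next with 1673, 1759 and 1811 CPM (adjusted p = 8.87e-05, and 0.000174 with pools as blocks). In cluster 7 the CC079 level of 2137 CPM was not the lowest, since CC075 had 1957 CPM, and the strain test there gave an adjusted p of 0.311.

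**Figure D5:**
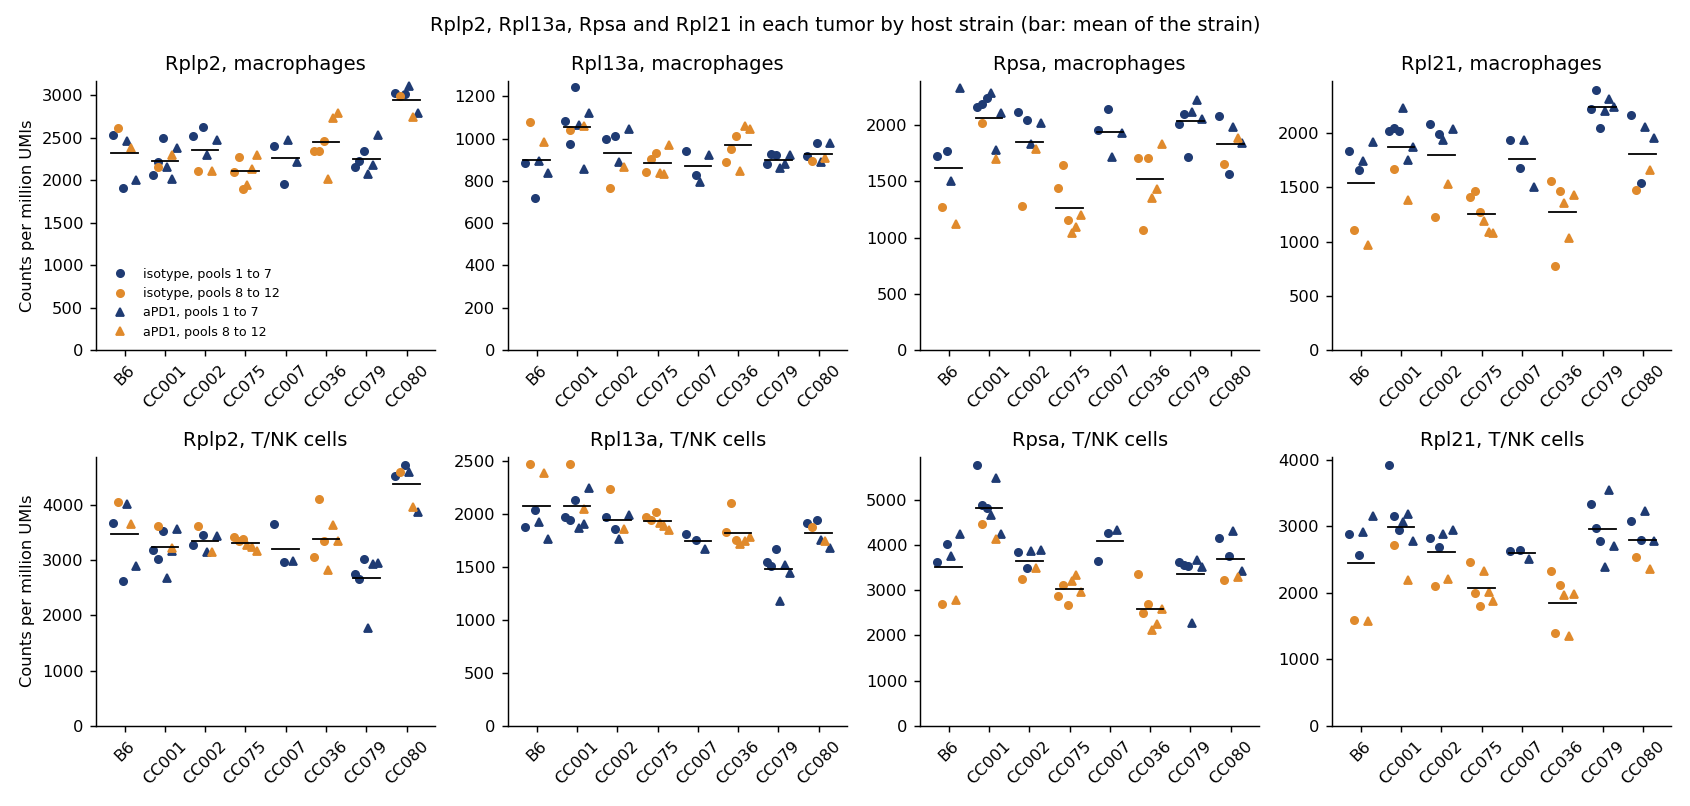
Rplp2, Rpl13a, Rpsa and Rpl21 (CPM, y axis) in macrophages (top) and T/NK cells (bottom) of each tumor by host strain (x axis); circles are isotype and triangles aPD1 tumors, blue marks pools 1 to 7 and orange pools 8 to 12, and bars are strain means. Rplp2 has its highest median in CC080 hosts in both sets of pools, with single tumors of other strains inside the CC080 range, and Rpl21 is lower in the orange tumors of B6 and CC002.

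Other members with small p-values between strains belonged to both subunits. In macrophages these included Rpl13 (edgeR adjusted p = 0.000365), Rpl4 (0.000368), Rpl29 (0.00039), Rplp0 (0.000485), Rps7 (0.00056), Rpsa (0.000655), Rps9 (0.000681) and Rpl10 (0.000943), and none of these 8 passed with pools as blocks. Those in T/NK cells included Rplp0 (5.86e-05), Rpl18 (0.000149), Rpl13 (0.000149), Rps15a (0.000223), Rpl34 (0.000379), Rpl28 (0.000417), Rpl9 (0.000425), Rpl29 (0.00052), Rpl17 (0.000819) and Rpl26 (0.000827). Of these 10, Rpl18, Rpl9 and Rpl29 did not pass with pools as blocks. Among the paralogs and Rps19bp1, those that passed between strains in macrophages were Rps19bp1 (adjusted p = 0.00161), Rpl39l (0.00497), Rpl7l1 (0.00597) and Rpl22l1 (0.00934), and those in T/NK cells were Rps27rt (0.0136) and Rpl36al (0.0415). Of these 6, Rpl39l alone passed with pools as blocks. Its counts were very low, and it may have passed the filter on low counts through the strains where it is high, so its p-values are weak support. Rps27l passed in neither (0.131 and 0.259). Rpl10l, a testis paralog of Rpl10, had 1 UMI in all cells and was not tested.

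Genes that serve the ribosome were read beside the family from fixed lists. Between response classes in macrophages, where 6.52% of all genes passed, 2 of 38 translation factors did, both lower in responder strains (Eif2s2, of the initiator tRNA complex, -0.17 ± 0.047, edgeR adjusted p = 0.0169, and Eif3j1, -0.22 ± 0.062, 0.0234). Of 36 ribosome biogenesis genes, Gnl3 (nucleostemin, -0.28 ± 0.079, adjusted p = 0.0265) and Rrp9 (-0.25 ± 0.078, 0.049) were lower. Of 24 regulators of TOP mRNAs and of ribosomal protein genes, Larp4 was lower (-0.20 ± 0.055, adjusted p = 0.0225). Of 78 mitochondrial ribosomal proteins, Mrps6 was lower (-0.37 ± 0.098, adjusted p = 0.0168) and Mrpl36 higher (0.18 ± 0.052, 0.0253). Among T/NK cells, where 2.69% of all genes passed, 2 of 38 translation factors were higher (Tpt1, itself a TOP mRNA, 0.17 ± 0.047, adjusted p = 0.0365, and Eif3h, 0.36 ± 0.10, 0.0464) and 1 of 22 regulators was lower (Foxo3, -0.65 ± 0.17, 0.0273). None of 32 biogenesis genes and none of 72 mitochondrial ribosomal proteins passed there.

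Between strains, 18 of 38 translation factors, 18 of 36 biogenesis genes, 12 of 24 regulators and 45 of 78 mitochondrial ribosomal proteins passed in macrophages, beside 51.3% of all genes. The T/NK counts were 15 of 38, 3 of 35, 3 of 23 and 23 of 78, beside 24.8% of all genes. After aPD1 none of the 4 lists had a gene past the threshold in either class or cell type. Fau (Rps30) and Rack1, ribosome constituents that the symbol rule leaves out, did not pass between classes. Fau had 0.13 ± 0.057 in macrophages (edgeR adjusted p = 0.203) and 0.19 ± 0.079 in T/NK cells (adjusted p = 0.226), and it passed between strains in both (0.0046 and 0.00122).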

How the data were processed

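The authors aligned the reads with Cell Ranger to GRCm38 (mm10), assigned cells to tumors by hashtag, removed cells of high mitochondrial or ribosomal share, and clustered the rest in Seurat 5.0.1 with total counts, both shares and cell cycle regressed out. They deposited raw UMI counts per gene and cell with the cluster and tumor of each cell. Whole-number counts were summed by cluster and by tumor, over macrophage clusters (2, 4, 5, 9, 15, 17, 19, 21, 26 and 27) and T/NK clusters (1, 3, 7, 8, 12, 13, 23 and 24), which were named from marker genes. Cluster 10 (625 cells) was left unnamed although all 9 T/NK markers reached 100 CPM in it. The reason was Lgals7 of the MC38 list among its 10 leading genes. With cluster 10 added, 2 members passed between classes in T/NK cells (150 of 7219 genes), and Rpl34 did not pass (edgeR adjusted p = 0.0526). Tumors with under 20 cells of a compartment were left out, which removed 1 CC007 aPD1 tumor from T/NK cells. Doublets were not called again.

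Sums were tested in edgeR 4.0.16 (R 4.3.3) by the quasi-likelihood test with TMM scaling and Benjamini-Hochberg adjustment over all genes kept by its expression filter. The scripts were tested on simulated data with known fold changes. The response class was taken from the study, and p-values measure the spread between tumors, not between strains of a class. The isotype and aPD1 tumor of a strain share a pool by the labels, and their deviations from the group means correlated with a median of 0.24 in macrophages (24 pairs, -0.23 to 0.55) and 0.13 in T/NK cells (22 pairs, -0.017 to 0.45), so pools were also fitted as blocks. Isotype and aPD1 tumors carried different hashtags throughout, so effects of tag and treatment cannot be told apart.

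Near-identical copies were found with blastn 2.17.0 (at least 95% identity over at least 200 bases or 80% of the transcript) in GENCODE vM21 on GRCm38, which is not the annotation release the authors counted with. Alternatives were library size scaling, scaling by the other genes, DESeq2 1.42.0, a looser filter, other sets of cells, tumors, pools and strains, and, chosen after seeing the data, the addition of cluster 10 to the T/NK clusters. Members and lists were chosen with earlier results of these data known. Named were the members past the threshold with the smallest p (up to 10 a direction, 15 for strain), Rps18 with its copies, Rpsa, Rplp0, Rplp1, Rplp2, the paralogs and Rps19bp1, the 10 members with the largest ratio of highest to median cluster, and up to 4 genes of each other list and test. Rpl28, Rps14, Rps27, Rps6 and the examples of pool differences were chosen after their values were seen. Some genes that this rule takes are not reported here.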

Additional observations from a re-analysis of the deposited data

Results flagged for a closer look

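In 12 cases of 111 groups of 4 to 10 tumors examined, the highest or lowest tumor stood far from the rest of its group, a gap that chance gives in about 1 in 20 groups. Groups by class and by strain reuse the same tumors, and values near 0 need not follow that rate. The 12 of 111 is therefore not a test against it. The ribosomal share in macrophages of non-responder isotype tumors was lowest in the CC036 tumor of pool 8, at 14.1% with the nearest tumor at 17.1%. Rpl39l, a gene of few UMIs, gave 6 of the cases in macrophages. It was highest at 0.99 CPM among non-responder isotype tumors (CC036, pool 10), at 2.64 CPM both among non-responder aPD1 and among CC036 tumors (CC036 aPD1, pool 8), at 5.69 CPM in B6 (isotype, pool 7), at 0.48 CPM in CC007 (isotype, pool 6) and at 4.44 CPM in CC075 hosts (isotype, pool 11).

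In T/NK cells Gm10260 was highest in CC001 hosts at 67.8 CPM in the isotype tumor of pool 4, with the next at 20.9 CPM. Rpl13a reached 2111 CPM in the CC036 isotype tumor of pool 8, with the next at 1832 CPM. The CC079 aPD1 tumor of pool 1, with 29 T/NK cells, was the lowest of its strain for Rps18 (940.8 CPM), Rplp2 (1770 CPM) and Rpsa (2265 CPM), so these 3 cases rest on 1 tumor.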

How the results depend on the processing

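Of 279 alternative values of the main results, 257 stayed close to the main value (counts within 1.5 times, shares within 1 SD) and 22 moved. These counts carry no direction, and the members' median between classes turned negative in 9 settings in macrophages (-3.6e-05 to -0.052) and in 1 in T/NK cells, cluster 7 alone (-0.051). Of 816 for named members, 763 kept direction and side of the threshold, 51 lost significance and 2 changed sign. In macrophages 2 members passed between response classes (6.52% of all genes). That count was 1 to 6 when a pool or strain was left out, 4 in pools 1 to 5 (2.59%), 1 in pools 8 to 12 (2.71%), 1 in the largest cluster (3.75%) and 1 with the copies of Rps18 summed (6.49%). In T/NK cells, where 3 passed (2.69%), it was 1 to 49 when a pool or strain was left out, 1 with tumors of at least 100 cells (1.94%), 6 without the animal identifier that 2 tumors share (2.82%), 1 in pools 1 to 5 (1.58%), 1 in pools 8 to 12 (0.633%), 1 in the largest cluster (0.0996%) and 7 by DESeq2 (3.58%). With pools as a replicate block it was 5 in T/NK cells, and between strains the block left 2 of the 54 members in macrophages and 27 of the 69 in T/NK cells. The block changed no other count of members past the adjusted threshold, but raised members at an unadjusted p under 0.05 after aPD1 from 2 to 15 in non-responder T/NK cells. The strain count in T/NK cells was 14 in the largest cluster. Rps18 between classes in macrophages turned to -0.044 with its copies summed, which follows from adding the copies' counts, and Rpl34 in T/NK cells turned to -0.0093 in the largest cluster (edgeR adjusted p = 0.996). Settings of fewer cells, pools or tumors have fewer samples or counts by construction, and for the rest the cause was not tested. Single tumors held as few as 29 T/NK cells, and Rpl39l had 541 UMIs in all.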
